A study of Homo sapiens with 4 samples.

Results

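The genes described here are the small nucleolar RNAs (snoRNAs) of HCT116 cells, with their relatives of the Cajal body (scaRNAs), the RNA of RNase MRP (RMRP), and the long noncoding genes that carry snoRNAs in their introns (the SNHG genes and GAS5). HCT116 is a human colon cancer cell line. Members were the rows of the count table whose symbol begins with SNORD, SNORA, SCARNA or SNHG followed by a number, plus GAS5 and RMRP, with 10 or more counts in at least 2 of the 4 libraries. The rule found 54 members among 425 rows with such a symbol, in a table of 35820 rows. They were 10 SNORD, 17 SNORA and 7 SCARNA genes, 19 host genes counting GAS5 with the SNHG genes, and RMRP. The RNA of RNase P was not analysed here. The TOP3B-KO group was clone E2-4, 1 CRISPR clone of HCT116 whose guide RNA targeted TOP3B in exon 2, and the WT group was unedited HCT116. Each group had 2 libraries of total RNA depleted of ribosomal RNA, and the series asks how loss of TOP3B, a topoisomerase of both DNA and RNA, alters transcription. Clone and genotype cannot be told apart with 1 clone. The labels do not say whether a group's libraries are from separate cultures, so p-values measure the spread between these libraries, which may be technical.

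Most snoRNAs are cut out of the introns of other genes after splicing and end up in the nucleolus as RNA-protein particles. Box C/D RNAs (SNORD) guide methylation of the ribose and box H/ACA RNAs (SNORA) guide the change of uridine to pseudouridine, mostly in ribosomal RNA, while scaRNAs guide the same changes in the RNAs of the spliceosome. A few, among them the U3 RNA and the RNA of RNase MRP, act in the cutting of the ribosomal RNA precursor instead. U3 and the RNA of RNase MRP are made from promoters of their own.

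The sequences below are of RNAs named in the comparison. They were read from the GENCODE transcripts of GRCh38, and capitals mark the boxes that a search found. In SNORD3A (U3, chromosome 17), SNORD17 (chromosome 20) and SCARNA6 (chromosome 2) the capitals are NTGATGA, the letters searched for box C, and CTGA within the last 20 bases, the letters searched for box D.
SNORD3A: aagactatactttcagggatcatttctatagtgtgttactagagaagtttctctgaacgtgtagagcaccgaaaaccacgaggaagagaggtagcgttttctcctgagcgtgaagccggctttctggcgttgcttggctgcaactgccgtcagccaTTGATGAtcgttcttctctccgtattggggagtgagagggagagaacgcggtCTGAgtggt
SNORD17: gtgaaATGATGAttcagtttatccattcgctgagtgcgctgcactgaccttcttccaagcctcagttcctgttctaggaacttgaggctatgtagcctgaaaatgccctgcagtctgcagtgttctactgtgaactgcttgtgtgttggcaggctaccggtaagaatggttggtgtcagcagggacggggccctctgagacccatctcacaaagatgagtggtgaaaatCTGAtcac
SCARNA6: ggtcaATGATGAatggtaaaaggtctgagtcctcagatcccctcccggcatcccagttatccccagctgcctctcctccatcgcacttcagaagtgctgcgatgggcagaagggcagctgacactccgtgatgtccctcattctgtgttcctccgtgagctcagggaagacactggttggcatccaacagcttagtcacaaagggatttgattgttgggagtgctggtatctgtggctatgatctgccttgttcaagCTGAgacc
SNORD17 and SCARNA6 had box C at base 6, next to the 5′ end, whereas in SNORD3A the match lay at base 157. These RNAs are 217, 237 and 265 bases long in the annotation (SNORD3A, SNORD17 and SCARNA6 in that order). The next sequences are of box H/ACA RNAs, with the ACA that lies 3 bases from the 3′ end in capitals. SNORA53 (chromosome 12) and SNORA73B (chromosome 1) had lower levels in KO.
SNORA53: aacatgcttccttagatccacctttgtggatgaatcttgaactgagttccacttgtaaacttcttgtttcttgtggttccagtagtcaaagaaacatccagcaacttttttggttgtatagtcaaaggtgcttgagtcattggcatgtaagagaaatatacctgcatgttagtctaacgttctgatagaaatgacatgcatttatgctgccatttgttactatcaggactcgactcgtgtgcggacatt
SNORA73B: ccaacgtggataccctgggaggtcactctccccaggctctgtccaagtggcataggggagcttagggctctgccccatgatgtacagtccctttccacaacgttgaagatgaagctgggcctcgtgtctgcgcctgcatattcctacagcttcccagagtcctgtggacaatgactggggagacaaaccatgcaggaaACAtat
SNORA65 (chromosome 9) and SNORA80B (chromosome 2) had higher levels in KO and are shorter, at 130 and 136 bases. SNORA80B passed the count rule through the KO libraries alone, which favours a higher value in KO. Neither tool called any of these box H/ACA RNAs.
SNORA65: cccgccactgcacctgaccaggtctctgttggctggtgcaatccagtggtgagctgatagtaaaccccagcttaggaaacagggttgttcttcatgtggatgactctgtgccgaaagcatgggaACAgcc
SNORA80B: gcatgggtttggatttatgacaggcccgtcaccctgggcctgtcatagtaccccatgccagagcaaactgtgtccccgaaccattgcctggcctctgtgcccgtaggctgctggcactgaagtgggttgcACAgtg
SNORA53 held no ACA at that place. The search, made on the transcript strand alone, found box C in 7 of the 10 SNORD members, against 77.4% of the 288 annotated SNORD transcripts, and box D in 9, against 94.4%. ACA was found in 11 of the 17 SNORA members, against 75.2% of the 149 annotated SNORA transcripts. A match is only a match of letters.

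The libraries held 10450048 and 16143634 estimated counts in KO and 15141919 and 11750516 in WT. The members took 4.58% and 4.43% of the counts in the KO libraries, against 5.82% and 5.66% in the WT libraries. SNORD3A and RMRP alone accounted for 4.24% and 4.10% in KO and 5.51% and 5.30% in WT. Levels are given as CPM, the usual measure of counts relative to the library total, scaled with TMM factors. These factors were 1.06 in both KO libraries, and 0.858 and 1.04 in WT, so that WT replicate 1 stood apart. By share of all counts, without TMM factors, the median log2 ratio of KO over WT over all genes was 0.14 in place of -0.01. The TOP3B transcript had 43.9 and 54.7 CPM in KO, against 57.1 and 66.5 CPM in WT, and its level does not check an edit in exon 2. Of 8 colon epithelial markers, KRT20 was at 0, and the summed level was 1521.9 and 1451.8 CPM in KO, against 2584.0 and 2116.8 CPM in WT. All 4 leukocyte markers were at 0 and the summed fibroblast, endothelial and erythroid markers each reached at most 1.72 CPM in a library. Most of this sum was KRT19, a keratin, with 1205.7 and 1083.4 CPM in KO and 2243.1 and 1744.5 CPM in WT. Without KRT19 the other 7 markers summed to 316.3 and 368.4 CPM in KO and 340.8 and 372.4 CPM in WT, and the groups overlapped. The part of the KRT19 difference in the results below was not tested.

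The table held few short snoRNAs. Of its 247 SNORD rows, 235 had 0 counts in every library, as did 73 of the 131 SNORA rows and 3 of the 19 SCARNA rows. From counting error alone, a library with 0 counts can hide a level of 0.176 to 0.271 CPM. Some genes of general use in cells, DBR1 (the enzyme that opens intron lariats), ZNHIT6 (a box C/D assembly factor) and the host gene SNHG8, were also listed at 0 in every library. They were picked out after their values were seen, and whether a 0 is a low level or a failed estimate was not tested. Among SNORD, SNORA and SCARNA rows with an annotated length under 120 bases, 1 of 238 was a member (SNORD91B), against 33 of the 159 of 120 bases or more. SNORD91B is 95 bases long in its shortest annotated transcript, but the length behind the authors' RPKM of it was 228 bases. The median length was 181.5 bases for SNORD members and 80 for the other SNORD rows. The box C/D members therefore are the long ones and do not stand for the class. The members nearest to the limit were SNORA5A (9 and 13 counts in KO, 11 and 6 in WT), SNORA80B (12 and 24 in KO, 3 and 6 in WT) and SNORD91B (12 and 15 in KO, 11 and 12 in WT). The nearest rows outside were SNORD91A (9 and 17 counts in KO, 6 and 5 in WT) and SCARNA8 (7 and 4 in KO, 1 and 7 in WT). Of the 54 members, 47 had 10 or more counts in all 4 libraries, and SNORA3B and SNORA80B passed the rule through the KO libraries alone. All 54 were tested, since all passed the low-count filter of the fit.

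Several long and abundant snoRNAs and scaRNAs had lower levels in the KO clone, 3 of them by DESeq2 and 0 by edgeR, and no host gene passed adjustment in either tool. In bulk RNA, fewer cells with an RNA and less of it per cell cannot be told apart. The quasi-likelihood test of edgeR, adjusted by Benjamini-Hochberg over 12269 genes, called 0 members in either direction (0.00815% of all genes tested were called), while DESeq2 called 3 members lower and 0 higher. These were SNORD3A, SNORD17 and SCARNA6. Of all genes, DESeq2 called 1.45%, with 0.946% lower and 0.504% higher. At an unadjusted edgeR p under 0.05 there were 8 members lower, against 6.21% of all genes, and 3 higher, against 4.97%. The 8 were all snoRNAs or scaRNAs, and 2 of the 3 were host genes. The KO values lay below both WT values in 16 members, above them in 16 and overlapped them in 22. These counts use CPM with TMM factors. Without the factors the groups overlapped in some of the members counted below, among them RMRP and SNORA74A. In all genes tested the shares below and above were 23.5% each, against 29.6% each in the members. By class, the KO libraries lay below in 3 of 10 SNORD, 5 of 17 SNORA, 5 of 7 SCARNA and 2 of 19 host genes, and above in 4, 4, 0 and 8. The median log2 fold change was 0.09 for SNORD, 0.34 for SNORA, -0.46 for SCARNA and 0.17 for the host genes, against -0.01 for all genes tested. These medians are a description of the members that passed the rule. SNORA3B and SNORA80B passed it through the KO libraries alone, which favours higher values in KO. Both are among the 16 members and the 4 SNORA members above, and both enter the SNORA median. SNORA80B is also among the 3 higher at an unadjusted edgeR p under 0.05. DESeq2 called SNORD3A alone without WT replicate 1, 7 members lower without WT replicate 2, and 0 members without either KO library.

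**Figure D1:**
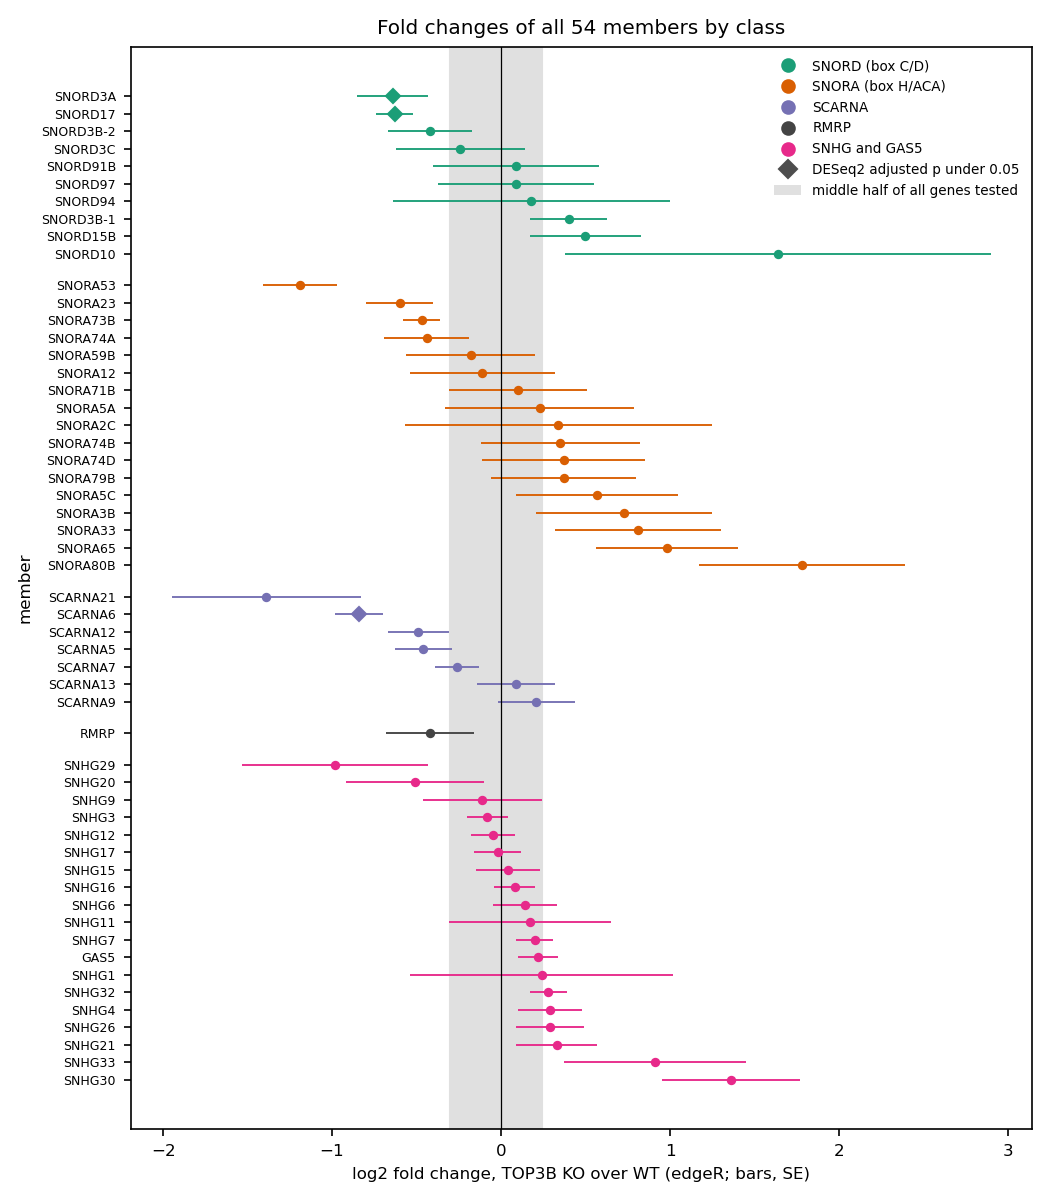
Log2 fold change of KO over WT from edgeR for the 54 members, 1 row each, grouped by class, with bars for the SE (n = 2 libraries a group). Diamonds mark SNORD3A, SNORD17 and SCARNA6, which DESeq2 called lower at -0.64, -0.63 and -0.84, and the grey band runs from the lower to the upper quartile of all genes tested, -0.30 to 0.24.

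The U3 RNA, which is needed for the first cuts of the ribosomal RNA precursor, was by far the most counted box C/D RNA. SNORD3A had 20147.5 and 23073.4 CPM in KO, against 36430.0 and 30987.0 CPM in WT. The groups did not overlap, and KO stood at a log2 fold change of -0.64 (SE 0.21; edgeR adjusted p = 0.410; DESeq2 adjusted p = 0.0152). With 1 library left out the log2 fold change ran from -0.74 to -0.52. The other U3 genes are near-identical copies. SNORD3C matches SNORD3A at 216 of 217 bases and SNORD3B-1 matches SNORD3B-2 at all 217, so that the division of reads among them is uncertain. SNORD3B-2 had 36.9 and 37.1 CPM in KO, against 60.9 and 37.9 CPM in WT. SNORD3B-1 had 20.8 and 15.8 CPM in KO, against 12.5 and 15.2 CPM in WT, which is the opposite direction. Their log2 fold changes were -0.42 (SE 0.25) and 0.40 (SE 0.23), with edgeR adjusted p of 0.555 and 0.550. Summed over the 4 U3 genes, which does not depend on that division, the level was 20209.0 and 23130.7 CPM in KO and 36509.4 and 31043.8 CPM in WT, a log2 ratio of -0.64.

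SNORD17, a guide for methylation of the large-subunit ribosomal RNA, had the same direction with less spread. Its level was 122.8 and 112.6 CPM in KO, against 182.9 and 181.2 CPM in WT. The groups did not overlap, and the WT libraries nearly coincided. Its log2 fold change of -0.63 (SE 0.11; edgeR adjusted p = 0.260; DESeq2 adjusted p = 0.0157) lay between -0.69 and -0.57 with any 1 library left out. Apart from SNORD17, SNORD3A, SNORD3B-1 and SNORD3B-2, the box C/D members were low, at most 4.67 CPM on average in KO. SNORD10 had 1.63 and 2.17 CPM in KO, against 0 and 1.23 CPM in WT. That is 18 and 37 counts in KO against 0 and 15 in WT, and the log2 fold change of 1.64 had an SE of 1.26 (edgeR adjusted p = 0.624). SNORD15B, with 4.88 and 4.46 CPM in KO and 2.93 and 3.69 CPM in WT, had a log2 fold change of 0.50 (SE 0.33; edgeR adjusted p = 0.583). SNORD91B, SNORD94, SNORD97 and SNORD3C had log2 fold changes between -0.24 and 0.18, each smaller than its SE.

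Among box H/ACA RNAs the more abundant ones were lower in KO, and most of the scarce ones had log2 fold changes above 0. SNORA3B and SNORA80B, members through the KO libraries alone, are among the scarce ones above 0. The SNORA median was 0.34, and it was -0.06 without WT replicate 1. SNORA73B, a member of the U17 family that acts in cutting the ribosomal RNA precursor, had 252.2 and 254.0 CPM in KO, against 353.5 and 349.8 CPM in WT. The libraries of each group nearly coincided. The log2 fold change of -0.47 (SE 0.11) had adjusted p of 0.296 by edgeR and 0.0667 by DESeq2. SNORA53 had 8.40 and 6.99 CPM in KO, against 16.4 and 18.7 CPM in WT. The groups did not overlap, and this was the lowest log2 fold change of a SNORA member, at -1.19 (SE 0.22; edgeR adjusted p = 0.260; DESeq2 adjusted p = 0.0649). SNORA23 had 10.0 and 10.7 CPM in KO, against 15.4 and 16.2 CPM in WT (log2 fold change -0.60, SE 0.20; edgeR adjusted p = 0.405). SNORA74A, the U19 RNA, had 20.3 and 16.0 CPM in KO, against 20.5 and 28.7 CPM in WT (log2 fold change -0.44, SE 0.25; edgeR adjusted p = 0.533). Its highest KO library was just under its lowest WT library with TMM factors. The authors' RPKM overlapped, at 109.1 and 85.6 in KO and 89.0 and 151.6 in WT. These 4 RNAs were the only SNORA members above 10 CPM in the mean of the libraries. In each the KO libraries lay below the WT libraries by CPM, in SNORA74A with TMM factors only.

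The higher values in KO came from RNAs of few counts. SNORA80B had 12 and 24 counts in KO, against 3 and 6 in WT, or 1.08 and 1.41 CPM against 0.231 and 0.491 CPM. Its log2 fold change of 1.78 was the largest of the 54 members (SE 0.61; edgeR adjusted p = 0.417; DESeq2 adjusted p = 0.834), but it is also 1 of the 2 that passed the rule through KO alone, and its sequence matches SNORA80A at 91.2% of bases. SNORA65 had 38 and 57 counts in KO, against 17 and 26 in WT, or 3.43 and 3.35 CPM against 1.31 and 2.13 CPM. The groups did not overlap (log2 fold change 0.98, SE 0.42; edgeR adjusted p = 0.475). SNORA33 and SNORA3B also had both KO libraries above both WT libraries, with log2 fold changes of 0.81 (SE 0.49) and 0.73 (SE 0.52). In the other 9 SNORA members the log2 fold changes ran from -0.18 to 0.57, and the KO libraries overlapped the WT libraries in all but SNORA59B. SNORA3B, SNORA59B, SNORA5A and SNORA71B, too, have copies that match at 90% of bases or more.

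**Figure D2:**
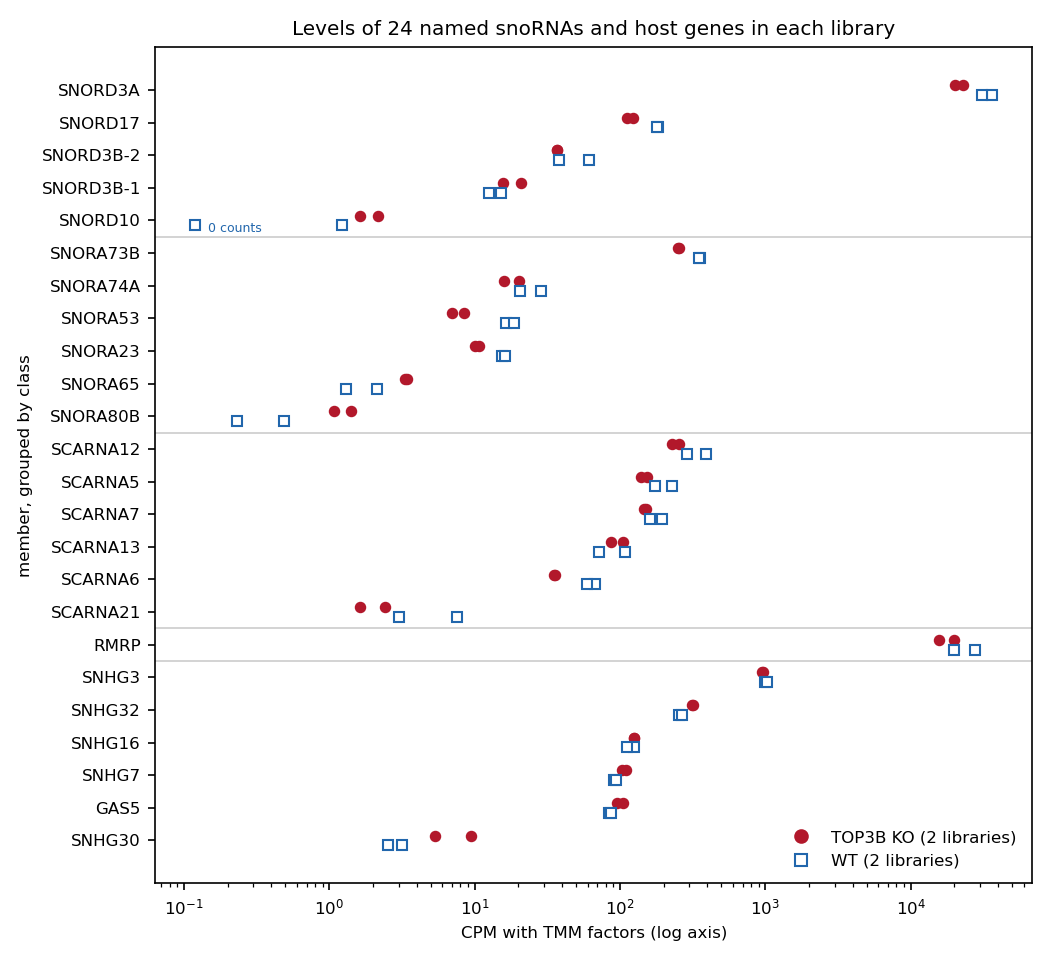
Level of the 24 named members in each library, in CPM with TMM factors on a log axis, with filled circles for the 2 KO libraries and open squares for the 2 WT libraries of each gene. The abundant SNORD3A, SNORD17, SNORA73B and SCARNA6 lie to the left in KO, and the low SNORA65 and SNORA80B to the right. SNORA80B passed the count rule through the KO libraries alone. SNORD10 is drawn at the left edge for the WT library with 0 counts.

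The scaRNAs leaned most to one side, with 5 of 7 (71.4%) lower in both KO libraries than in either WT library and 0 higher. Over all genes tested 23.5% were lower by this rule and 23.5% higher. SCARNA6, of the composite kind that carries both C/D and H/ACA features, had 35.9 and 35.2 CPM in KO, against 67.5 and 59.8 CPM in WT. KO was 1.79-fold lower, and the gap between the groups was wider than the spread within each. Its log2 fold change of -0.84 (SE 0.14; edgeR adjusted p = 0.253; DESeq2 adjusted p = 0.0136) was the lowest among snoRNAs and scaRNAs above 10 CPM apart from SNORA53. SCARNA5, which lies in the same host gene ATG16L1 and is related to it (179 of 265 bases match), had 153.0 and 138.9 CPM in KO, against 227.0 and 173.9 CPM in WT. SCARNA12 had 255.4 and 229.5 CPM in KO, against 392.4 and 288.1 CPM in WT. In both genes WT replicate 1 was the highest library. Their log2 fold changes were -0.46 (SE 0.17; edgeR adjusted p = 0.432) and -0.49 (SE 0.18; edgeR adjusted p = 0.441), and each stood at -0.25 without WT replicate 1. SCARNA7, a guide for methylation of the spliceosomal U1 RNA, had 146.7 and 150.6 CPM in KO, against 194.6 and 162.1 CPM in WT (log2 fold change -0.26, SE 0.13; edgeR adjusted p = 0.517). SCARNA21 had 1.63 and 2.41 CPM in KO, against 7.63 and 3.03 CPM in WT, with a log2 fold change of -1.39 (SE 0.56; edgeR adjusted p = 0.461) that was -0.58 without WT replicate 1.

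The remaining scaRNAs did not differ beyond their spread. SCARNA13 had 104.5 and 87.2 CPM in KO, against 71.8 and 107.7 CPM in WT (log2 fold change 0.09, SE 0.23; edgeR adjusted p = 0.887), and the sign turned to -0.17 without WT replicate 1 and to -0.04 without KO replicate 1. SCARNA9 had 68.3 and 74.4 CPM in KO, against 48.2 and 75.1 CPM in WT (log2 fold change 0.21, SE 0.23). For both, WT replicate 1 was the lowest of the 4 libraries.

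RMRP, the RNA of the RNase that cuts the ribosomal RNA precursor between its subunit parts, had 19884.5 and 15770.0 CPM in KO, against 27875.7 and 19977.4 CPM in WT. With TMM factors the higher KO library was just below the lower WT library. By share of all counts the groups overlapped, at 2.11% and 1.66% in KO and 2.39% and 2.08% in WT. Its log2 fold change of -0.42 (SE 0.26; edgeR adjusted p = 0.556; DESeq2 adjusted p = 0.574) ranged from -0.63 without WT replicate 2 to -0.16 without WT replicate 1. Per length, the authors' RPKM of RMRP were 80088 and 63258 in KO and 90846 and 78947 in WT, and the groups overlapped. The RPKM of SNORA73B were 1316 and 1320 in KO and 1493 and 1791 in WT, and those of SCARNA12 were 1006 and 900 in KO and 1250 and 1113 in WT, so RMRP stood far above both on this scale. RPKM of SNORD3A are not compared, since the length behind them was 698 bases, against 217 for the RNA.

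Length and level went together with the direction of the difference. Length here is that of the shortest annotated transcript. The lengths behind the authors' RPKM were greater for SNORA59B (700 against 152 bases), SNORA71B (271 against 134) and SNORD91B (228 against 95). By those lengths these RNAs would not be under 180 bases. The short RNAs are the SNORD, SNORA and SCARNA members with RMRP. Of the 17 of 180 bases or more, 13 were below 0 on the log2 fold scale, with a median of -0.44. In 12 the KO values lay below those of both WT libraries, in RMRP and SNORA74A with TMM factors only. Of the 18 under 180 bases, 15 were above 0, with a median of 0.35, and in 7 the KO values lay above. In all genes tested 51.5% lay below 0. The KO values lay below both WT values in 23.5% of them and above both in 23.5%. SNORA3B and SNORA80B, which passed the count rule through the KO libraries alone, are among those 15 and those 7. Without them 13 of 16 were above 0, with a median of 0.29, and in 5 the KO values lay above. All 8 short RNAs that were lower at an unadjusted edgeR p under 0.05 were in the longer group. Of all genes tested, 6.21% were lower at that limit. The limit was placed after the lengths were seen, at a gap between 152 and 182 bases, and the counts have no test. The longer group holds the 4 U3 genes, near-identical copies with an uncertain division of reads, so they do not count as separate RNAs. Of these, SNORD3A, SNORD3B-2 and SNORD3C were below 0 and SNORD3B-1 was above. Over the 35 short RNAs, which share the libraries, Spearman's rho was -0.59 between length and log2 fold change and -0.626 between mean level and log2 fold change (-0.532 and -0.567 over the 33 without SNORA3B and SNORA80B). Length and mean level were themselves related, with a rho of 0.833. Mean levels ran from 0.729 to 6.84 CPM under 180 bases and from 1.46 to 27659.5 CPM at 180 bases or more, so length and level cannot be told apart.

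The WT libraries differed from each other in the shorter RNAs. The median absolute log2 difference between the libraries of a group was 0.23 in KO and 0.76 in WT for RNAs under 180 bases, and 0.15 in KO and 0.29 in WT for the longer ones. Over all genes tested it was 0.22 in KO and 0.28 in WT. WT replicate 1 was below WT replicate 2 in 13 of the 18 shorter RNAs. Without WT replicate 1 the shorter RNAs had 10 log2 fold changes above 0 and 8 below, with a median of 0.15, and the longer ones had 3 above and 14 below, with a median of -0.25. Without WT replicate 2 the medians were 0.89 and -0.55. Of the 13 longer RNAs below 0, 12 were below 0 with each library left out in turn, and SNORD3C stood at 0.16 without WT replicate 1.

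**Figure D3:**
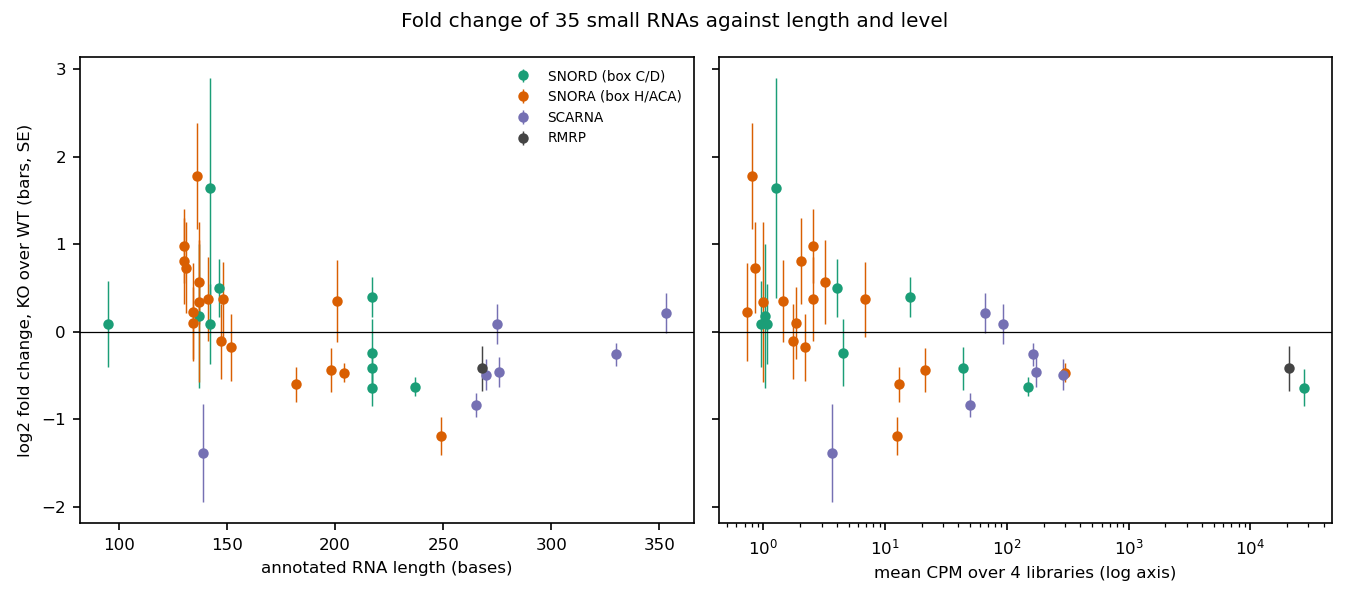
Log2 fold change of KO over WT with its SE (edgeR, n = 2 libraries a group) for the 35 short RNAs, against annotated length in bases (left) and against mean CPM over the 4 libraries on a log axis (right). Below 180 bases 15 of 18 lie above 0 (13 of 16 without SNORA3B and SNORA80B, members through the KO libraries alone). From 180 bases on 13 of 17 lie below 0, against 51.5% of all genes tested. The right panel shows that the shorter RNAs are also the scarce ones.

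The long noncoding host genes are spliced and mostly short-lived RNAs whose introns hold the snoRNAs, and GAS5 is a known target of nonsense-mediated decay. Of the 19, the KO libraries lay above both WT libraries in 8 (42.1%), below in 2 (10.5%) and overlapped in 9. The shares above and below over all genes tested were 23.5% each. GAS5, the host of several box C/D RNAs, had 104.5 and 95.6 CPM in KO, against 84.8 and 87.2 CPM in WT. SNHG32, also a host of box C/D RNAs, had 312.6 and 318.4 CPM in KO, against 254.4 and 265.6 CPM in WT. SNHG7 had 109.8 and 103.6 CPM in KO, against 91.4 and 94.7 CPM in WT. In all 3 the groups did not overlap, with log2 fold changes of 0.22 (SE 0.12), 0.28 (SE 0.11) and 0.20 (SE 0.11), and edgeR adjusted p of 0.525, 0.445 and 0.541. SNHG3, the most abundant host gene in CPM and the host of SNORA73B, had 948.9 and 964.4 CPM in KO, against 992.7 and 1031.8 CPM in WT (log2 fold change -0.08, SE 0.12; edgeR adjusted p = 0.793). By share of all counts its log2 ratio was 0.07, so its direction turned with the scaling. SNHG16 had 124.3 and 126.0 CPM in KO, against 124.5 and 112.5 CPM in WT (log2 fold change 0.08, SE 0.12).

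Larger folds in this class came with low counts or 1 library. SNHG30 had 5.33 and 9.39 CPM in KO, against 2.54 and 3.19 CPM in WT, a log2 fold change of 1.36 (SE 0.41; edgeR adjusted p = 0.382; DESeq2 adjusted p = 0.369). With 59 and 160 counts in KO and 33 and 39 in WT, the KO libraries differed more from each other than the WT libraries did. SNHG29 had 37.7 and 33.5 CPM in KO, against 107.7 and 32.9 CPM in WT. Its log2 fold change of -0.98 (SE 0.55; edgeR adjusted p = 0.530) became 0.11 without WT replicate 1. Summed over the class, the host genes had 1943.3 and 1961.6 CPM in KO and 1955.5 and 1906.4 CPM in WT, a log2 ratio of 0.02. The same sums gave -0.64 for SNORD, -0.43 for SNORA and -0.34 for SCARNA. Each of these sums is led by 1 gene, and without it the ratios were -0.46 without SNORD3A, -0.26 without SNORA73B, -0.26 without SCARNA12 and 0.12 without SNHG3.

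Whether a snoRNA moved with the gene that carries it was examined for the 30 that lie on the same strand within another gene of the annotation. They lie in 27 host genes, most of them protein-coding, of which 25 were tested. The hosts had a median log2 fold change of -0.04, with a range from -0.82 to 0.30, and 0 of the 25 had an unadjusted edgeR p under 0.05 (DESeq2 called 0). In 27 pairs the log2 ratio of snoRNA to host CPM could be formed in every library. The ratio was lower in both KO libraries than in both WT libraries in 7 pairs, higher in 6 and overlapping in 14. By the same rule, 23.5% of all genes tested lay below and 23.5% above, taken as single genes. The counts of pairs are near these shares. No share over other pairs of genes was formed, and no test was made of these ratios. The pairs that follow are given for their values.

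The 7 pairs with a lower ratio in KO were those of SCARNA21, SCARNA5, SCARNA6, SNORA53, SNORA73B, SNORA74A and SNORD17. The log2 ratio of SCARNA6 to ATG16L1, an autophagy gene, was -2.42 and -2.45 in KO, against -1.33 and -1.62 in WT, while ATG16L1 itself had 192.3 CPM in each KO library, against 169.4 and 183.9 CPM in WT. For SCARNA5 in the same gene the log2 ratios were -0.33 and -0.47 in KO, against 0.42 and -0.08 in WT. The host's own log2 fold change was 0.12 (SE 0.11), so both RNAs stood lower against a host that was not.

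SNORD17 lies in SNX5, a sorting nexin, and its log2 ratios were -2.43 and -2.66 in KO, against -2.08 and -1.88 in WT. SNX5 had a log2 fold change of -0.07 (SE 0.14). The log2 ratios of SNORA73B to SNHG3 were -1.91 and -1.92 in KO, against -1.49 and -1.56 in WT. SNORA73B and SNORD17 were lower relative to hosts whose own level differed by less than its SE. SNORA53 lies in SLC25A3, the mitochondrial phosphate carrier, which had a log2 fold change of -0.32 (SE 0.16). The log2 ratios of SNORA53 were -7.81 and -8.09 in KO, against -7.32 and -6.81 in WT. The part of the host in the SNORA53 difference was not tested. SNORA74A and its host SNHG4 went opposite ways, with log2 fold changes of -0.44 (SE 0.25) and 0.29 (SE 0.19). The log2 ratios were -1.27 and -1.71 in KO, against -0.80 and -0.72 in WT.

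**Figure D4:**
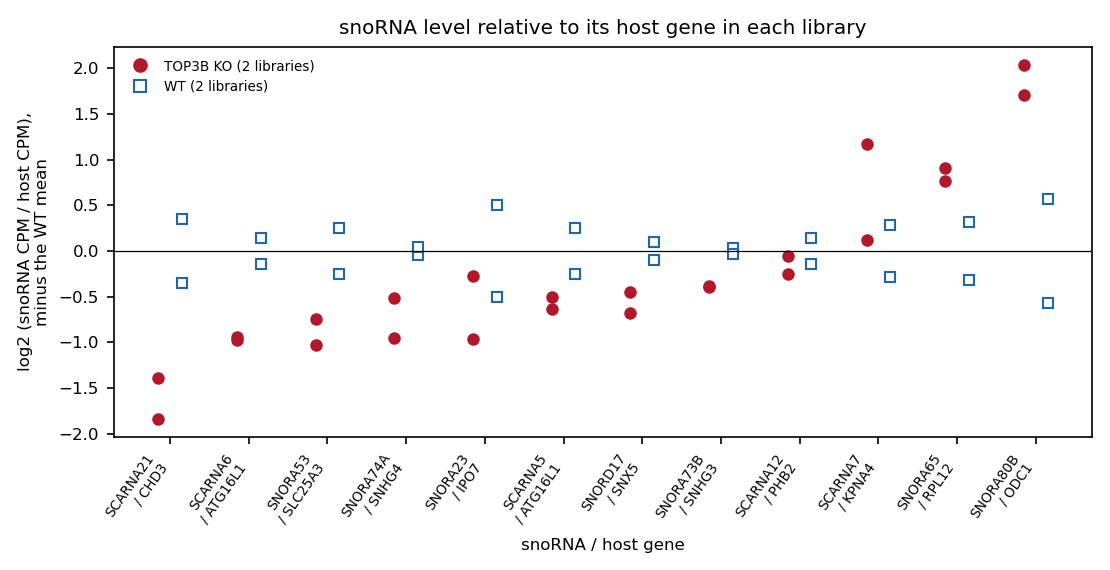
Log2 ratio of snoRNA CPM to host CPM in each library, minus the WT mean of that pair, for the named snoRNAs with a tested host and counts in every library; filled circles are the 2 KO libraries and open squares the 2 WT libraries. SCARNA6 in ATG16L1, SNORA53 in SLC25A3 and SNORA73B in SNHG3 lie below both WT libraries in KO, and SNORA65 in RPL12 and SNORA80B in ODC1 lie above. For SNORA80B the count rule, passed through the KO libraries alone, favours a higher ratio in KO.

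The 6 pairs with a higher ratio in KO held the scarce RNAs SNORA33, SNORA3B, SNORA65, SNORA71B, SNORA80B and SNORD15B. SNORA3B and SNORA80B are members through the KO libraries alone, a rule that favours a higher ratio in KO, and 4 pairs remain without them. For SNORA71B the groups barely parted, with log2 ratios of -4.37 and -4.56 in KO, against -4.57 and -4.59 in WT. SNORA80B lies in ODC1, the ornithine decarboxylase gene, whose log2 fold change was 0.00 (SE 0.12). Its log2 ratios were -9.76 and -9.43 in KO, against -12.04 and -10.90 in WT. SNORA65 lies in the ribosomal protein gene RPL12 (log2 fold change 0.18, SE 0.12), with log2 ratios of -5.87 and -5.73 in KO, against -6.96 and -6.32 in WT. RPS3 and RPL27A, the ribosomal protein genes that hold SNORD15B and SNORA3B, had log2 fold changes of -0.36 (SE 0.21) and -0.34 (SE 0.17), so the host values add to the ratio there. For SCARNA12 in PHB2, prohibitin, snoRNA and host were both lower in KO (-0.49, SE 0.18, and -0.32, SE 0.13) and the ratios overlapped, at 2.39 and 2.19 in KO and 2.59 and 2.30 in WT. The ratio of SCARNA7 to KPNA4 rests on a host with under 2 CPM in every library. Reads of a snoRNA can also match host transcripts that are annotated across it, which the ratio does not separate.

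**Figure D5:**
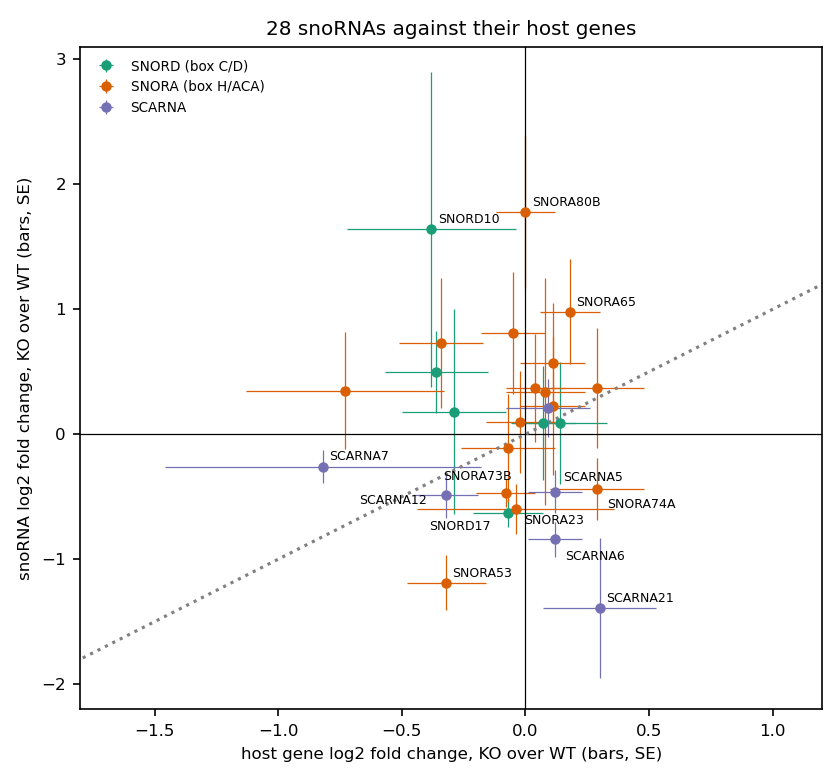
Log2 fold change of KO over WT for 28 snoRNAs (vertical) against that of their host genes (horizontal), each with its SE from edgeR (n = 2 libraries a group); the dotted line marks equal fold changes. The hosts lie between -0.82 and 0.30, and SCARNA6, SNORD17 and SNORA53 lie below the line while SNORA80B and SNORA65 lie above it. As a member through the KO libraries alone, SNORA80B was favoured to lie higher.

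The proteins that bind, assemble, trim or use these RNAs showed no shared direction. Of 50 genes in 8 lists, 47 were tested, with 22 above 0, 25 below and a median log2 fold change of -0.03. The lists cover the core proteins of both box classes, assembly factors, Cajal body and cap proteins, end trimming, RNase P and MRP proteins, U3 partners and decay of host transcripts. By edgeR 0 passed adjustment, with 2 higher and 3 lower at an unadjusted p under 0.05. These 5 are 10.6% of the 47, against 11.2% of all genes tested, so their share is near the background. DESeq2 called 1 gene lower, or 2.13%, against 0.946% of all genes. This was PARN, the exonuclease that trims the 3′ ends of box H/ACA RNAs. PARN had 29.3 and 41.8 CPM in KO, against 85.4 and 60.0 CPM in WT, a log2 fold change of -1.03 (SE 0.26; edgeR adjusted p = 0.338; DESeq2 adjusted p = 0.0450). The groups did not overlap, and the value was -0.75 without WT replicate 1.

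The others at an unadjusted p under 0.05, given for their values only, were 3 genes of nonsense-mediated decay and SMN1. UPF2 had 18.4 and 15.9 CPM in KO, against 25.2 and 27.4 CPM in WT (log2 fold change -0.61, SE 0.18; edgeR adjusted p = 0.373). UPF3B had 65.5 and 71.5 CPM in KO, against 95.3 and 89.3 CPM in WT (-0.43, SE 0.12; edgeR adjusted p = 0.372). SMG1, the kinase of that pathway, had 188.2 and 221.9 CPM in KO, against 161.7 and 152.1 CPM in WT (0.39, SE 0.13; edgeR adjusted p = 0.413), so the pathway had members on both sides. SMN1, which assembles the particles of the spliceosome, had 68.9 and 62.5 CPM in KO, against 40.1 and 50.3 CPM in WT (0.54, SE 0.17; edgeR adjusted p = 0.388), and shares its sequence with the near-identical SMN2. Among the core proteins, FBL, the box C/D methyltransferase, had 214.3 and 228.9 CPM in KO, against 541.9 and 228.0 CPM in WT. Its log2 fold change of -0.80 (SE 0.41; edgeR adjusted p = 0.515) was -0.04 without WT replicate 1. SNU13, the box C/D protein that binds the RNA first, had 11.8 and 5.70 CPM in KO, against 98.4 and 9.01 CPM in WT. The log2 fold change of -2.63 (SE 1.12; edgeR adjusted p = 0.472; DESeq2 adjusted p = 0.634) was the largest in size among the 47 tested genes, and it was -0.05 without WT replicate 1. In FBL and SNU13 alike, WT replicate 1 stood above the other 3 libraries, and the groups overlapped. NOP56 and NOP58, the remaining core box C/D proteins, had log2 fold changes of 0.11 and 0.10, each under its SE. The 3 tested core proteins of box H/ACA RNAs were all below 0. Their log2 fold changes were -0.33 (SE 0.19) for NHP2, -0.09 (SE 0.11) for GAR1 and -0.19 (SE 1.60) for DKC1. KO lay below both WT libraries in NHP2 and GAR1. DKC1 had 10 and 63 counts in KO, against 69 and 0 in WT, so its value is uncertain.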

How the data were processed

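Total RNA of HCT116 cells was depleted of ribosomal RNA and sequenced as stranded paired-end libraries, per the labels' protocols. The authors deposited a table of counts, which were treated as rounded estimated counts since Salmon 1.10.1 is named in the submitters' processing notes, with the build hg19. They also deposited RPKM of the same libraries. The sources used here do not give the annotation or any filter. The length behind the deposited RPKM followed the mean genomic span of a gene's transcripts, introns included (median ratio 1.001 over 6848 genes), so RPKM of host genes run low, and all tests used the counts. 1 row has different names in the 2 tables and was left as named in the count table.

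Names, lengths, hosts and sequences came from GENCODE 29 (GRCh38), matched by symbol; for short RNAs the shortest annotated transcript was taken. All 35 short RNAs matched. The authors' build differs, so coordinates are left out. A host was the gene whose span holds the RNA on the same strand (the shortest such gene).

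The test was edgeR 4.0.16 (estimateDisp, glmQLFit, glmQLFTest; TMM; filterByExpr; genotype alone; limma 3.58.1, R 4.3.3), adjusted by Benjamini-Hochberg over all 12269 genes tested at a threshold of 0.05. The SE is the log2 fold change divided by the square root of F. DESeq2 1.42.0 (Wald test) gave an adjusted p for 12899 genes. Floors use 3 counts. A pseudocount of 0.1 CPM was added for differences between libraries of a group. Alternatives were other scalings and filters, limma-voom, a replicate block and leaving out each library. Both tools were tested on simulated data with known changes. With 2 libraries against 2, an exact two-sided permutation test of one value cannot go below p = 0.333, so none was used. Whether replicate numbers pair libraries is not stated in the labels, and the main fit did not pair them.

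Named were members called by either tool, GAS5, RMRP and SNORD3A, the 4 of highest level in each class, and hosts of named members. So were the 4 largest and 4 smallest fold changes among members whose groups did not overlap. List genes at an unadjusted edgeR p under 0.05 were named as well. SNHG29, SNORD15B, FBL and the other members and list genes beyond these were named after their values were seen. The members, lists and rules were chosen with earlier results of these data known.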

Additional observations from a re-analysis of the deposited data

How the results depend on the processing

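The count of genes called over the whole table was 1 with edgeR, 187 with DESeq2 and 34 with no filter on low counts, and 0 to 575 with 1 library left out (3 without WT replicate 1, 575 without WT replicate 2, 0 without either KO library). Members called lower numbered 0 with edgeR, 3 with DESeq2 and 0 to 5 with 1 library left out (5 without WT replicate 2); members called higher numbered 0 under all 11 alternatives. DESeq2 with 1 library left out, added after the data were seen, called 0 to 7 members lower and 0 higher. Members at an unadjusted p under 0.05 numbered 11, 7 with the replicate block and 3 to 20 with 1 library left out. The labels do not say that replicate numbers pair libraries, and same-numbered libraries did not deviate together (r = 0.0584 over 12269 genes). Class medians ran over the left-out libraries from -0.14 to 0.13 for SNORD, -0.06 to 0.41 for SNORA, -0.63 to -0.25 for SCARNA and 0.06 to 0.24 for the host genes (0.20 with the replicate block), and from 0.15 to 0.89 for RNAs under 180 bases and -0.55 to -0.25 for the longer ones. By share of all counts the summed levels had log2 ratios of -0.47 for SNORD, -0.28 for SNORA, -0.17 for SCARNA and 0.17 for the host genes; without the most abundant gene of the class they were -0.46, -0.26, -0.26 and 0.12. Of 264 log2 fold changes of the 24 named members under the alternatives, 255 kept direction and side of the threshold, 7 kept direction and passed the threshold, and 2, both of SCARNA13, turned sign (-0.17 without WT replicate 1 and -0.04 without KO replicate 1, in a range from -0.17 to 0.43). The causes were not tested. Depth limits the SNORA and SNORD members near 1 CPM, which have few counts in a library, and most short box C/D RNAs were listed at 0, as were DBR1, ZNHIT6 and SNHG8.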
